A study of Homo sapiens with 9 samples.

Results

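The genes of oxidative phosphorylation that the nuclear genome encodes were examined in VCaP cells after knockdown of the lncRNA *IGF1R-AS1*. VCaP is an established, androgen receptor-positive prostate cancer cell line that carries the *TMPRSS2*-*ERG* fusion. Members were taken by symbol alone, as all genes whose symbols begin with NDUFA, NDUFB, NDUFC, NDUFS, NDUFV, UQCR, COX4I, COX5, COX6, COX7, COX8 or ATP5, together with *SDHA*, *SDHB*, *SDHC*, *SDHD* and *CYC1*. This gave 97 of the 19918 genes in the count files. Of these, 85 are subunits of the 5 complexes, with 37 in complex I, 4 in complex II, 10 in complex III, 18 in complex IV and 16 in complex V. The other 12 comprise 9 assembly factors, the supercomplex factor *COX7A2L* and 2 read-through genes. The label of the set therefore describes most but not all members. The 9 assembly factors and the read-through genes are described apart below, but counts of members include the 9 assembly factors and *COX7A2L*. Cells received 100 pmol of siRNA by reverse transfection and were collected after 72 h. The groups were control siRNA, si025 and si033, with 3 libraries each. The siRNAs si025 and si033 target exon 1 of *IGF1R-AS1*, and all 9 libraries came from siRNA-transfected cells of 1 line. The study calls the replicates biological, but the sources used here do not say whether they were separate cultures, and the p values measure the spread between these libraries.

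Oxidative phosphorylation couples the oxidation of NADH and succinate to ATP synthesis in the inner mitochondrial membrane. Complex I takes electrons from NADH and complex II from succinate, and both pass them through ubiquinone to complex III. Cytochrome c then carries electrons to complex IV, where oxygen is reduced. Complexes I, III and IV pump protons, and the ATP synthase, complex V, uses the resulting gradient. Most subunits are encoded in the nucleus and the remainder in mitochondrial DNA. Prostate luminal cells are known for high zinc and citrate export, and prostate cancer cells for a more complete citric acid cycle and greater use of respiration.

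The libraries held between 11649811 and 28492259 counts, and 14735 to 15474 genes had at least 1 count. The 12810 genes that passed the expression filter were tested, and the biological coefficient of variation was 4.13%. Levels are given as CPM (counts scaled to library size) with mean ± SD over 3 libraries, and levels of different genes are compared only as TPM, which also divides by gene length. All 11 luminal and prostate markers exceeded 1 CPM, with summed levels of 8720 to 8980 CPM in control, 10500 to 10800 with si025 and 7490 to 7840 with si033. *KRT5*, *CDH5* and *CD3E* had no count in any library, and the summed basal, endothelial and leukocyte markers did not exceed 4.98 CPM. The 4 fibroblast markers summed to 16.5 to 18.6 CPM in control, 36.5 to 43.9 with si025 and 8.73 to 11.5 with si033, and their part in the results was not tested. The targeted transcript and the 13 mitochondrially encoded subunits were not analysed here, so neither the degree of knockdown nor the other genome of the pathway was measured.

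The 85 subunits took 1.29% ± 0.0157 of all counts in control (SD, n = 3), 1.24% ± 0.0629 with si025 and 1.36% ± 0.0417 with si033. The shares were 1.28% to 1.31% in control, 1.19% to 1.31% for si025 and 1.31% to 1.39% for si033, so the groups met or overlapped at 1.31%. Per length, control cells held 33100 ± 340 TPM of subunit transcripts, of which complex V gave 11700 ± 80.9, complex IV 10100 ± 237, complex I 7920 ± 41.9, complex III 2830 ± 12.1 and complex II 600.0 ± 14.2. The most abundant subunits were *COX8A* with 3240 TPM and *ATP5B*, the catalytic beta subunit of the ATP synthase, with 3220 TPM. The least abundant tested subunit of complex I was *NDUFA11* with 33.5 TPM, and of complex II *SDHC* with 57.4 TPM.

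Of the 97 members, 85 passed the expression filter, among them 75 subunits. A gene is referred to as called when its adjusted p value was under 0.05 in the edgeR quasi-likelihood test. With si025, 39 of the 85 tested members were called (45.9%), 8 higher and 31 lower than control. Over all tested genes 61.7% were called, 32.9% higher and 28.8% lower. With si033, 25 members were called (29.4%), 18 higher and 7 lower, against a background of 54.8% with 26.9% higher and 27.8% lower. Between the siRNAs 50 members were called (58.8%), 11 higher and 39 lower with si025 than with si033, against 60.9% of all genes with 31.2% higher and 29.7% lower. Among the 75 tested subunits alone, 34 were called with si025 (5 higher, 29 lower) and 22 with si033 (17 higher, 5 lower). Between the siRNAs 43 subunits were called, 7 higher and 36 lower with si025. The contrasts with control share the same control libraries. Changes were small, with a median absolute log2 fold change of 0.12 for members and 0.26 for all genes with si025, and of 0.09 and 0.22 with si033. Members called with a change of at least 1.2-fold numbered 15 with si025, 7 with si033 and 19 between the siRNAs, where 44.6%, 37.1% and 42.9% of all tested genes reached that size.

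**Figure D1:**
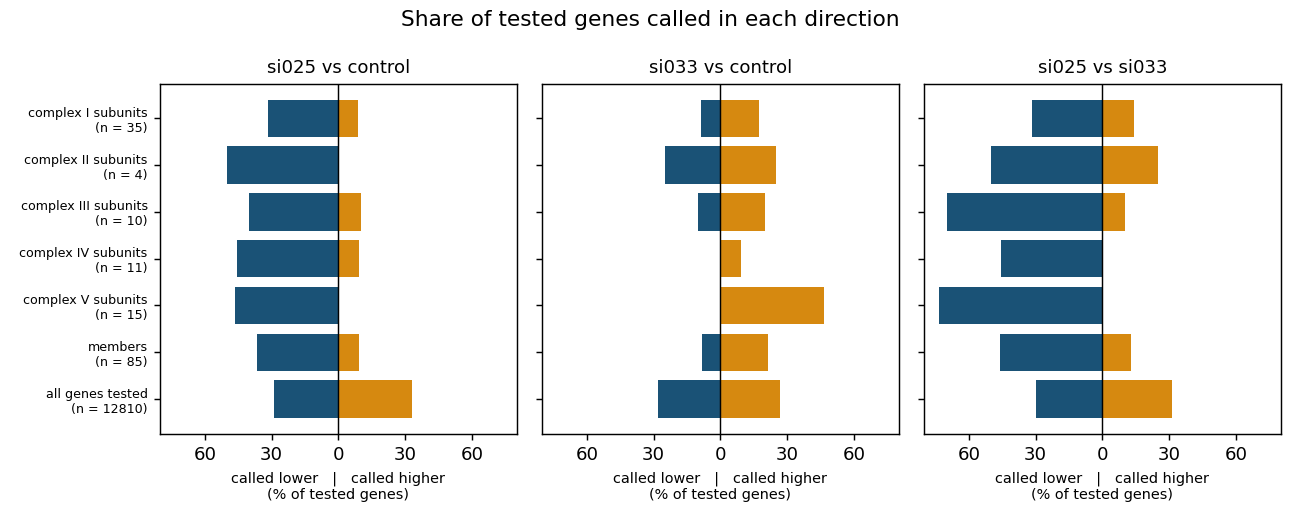
Horizontal bars give the percentage of tested genes called lower (left of 0) and higher (right of 0) at an adjusted p under 0.05, for the subunits of each complex, all 85 tested members and all 12810 tested genes, in the 3 comparisons. With si025 45.9% of members and 61.7% of all genes were called, and with si033 29.4% and 54.8%. All 7 complex V calls lay on the lower side with si025 and all 7 on the higher side with si033. Only *ATP5F1* was called in both, and the other calls fell on different subunits.

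The members shifted from library to library together with other short genes, and the part of this shift in the small changes was not tested. The tested members are short, with a median exonic length of 1220 bases against 4220 for all tested genes. Compared with the mean of the control libraries, the median member lay at -0.15, 0.00 and -0.08 (log2) in the si025 libraries and at 0.07, 0.05 and -0.04 in the si033 libraries. The 624 other tested genes of at most 1220 bases lay at -0.11, 0.03 and -0.06 and at 0.08, 0.06 and -0.02 in the same libraries. The median over all tested genes stayed between -0.01 and 0.02. Of these short genes, 52.9% were called with si025, 45.2% with si033 and 53.2% between the siRNAs. When the trend with gene length was taken out of each library, the calls became 17 higher and 27 lower with si025, 19 higher and 14 lower with si033, and 16 higher and 30 lower between the siRNAs, and the median log2 fold changes of the members were -0.041, 0.007 and -0.055. Small changes shared by many members are given below as counts, and single genes by their values in each library. Most subunits described were named by a fixed rule, which took the highest and lowest called change and the highest and lowest TPM of each complex, the largest differences between the siRNAs, complex II with *CYC1*, and families of paralogs. The other genes were chosen after their values were seen.

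**Figure D2:**
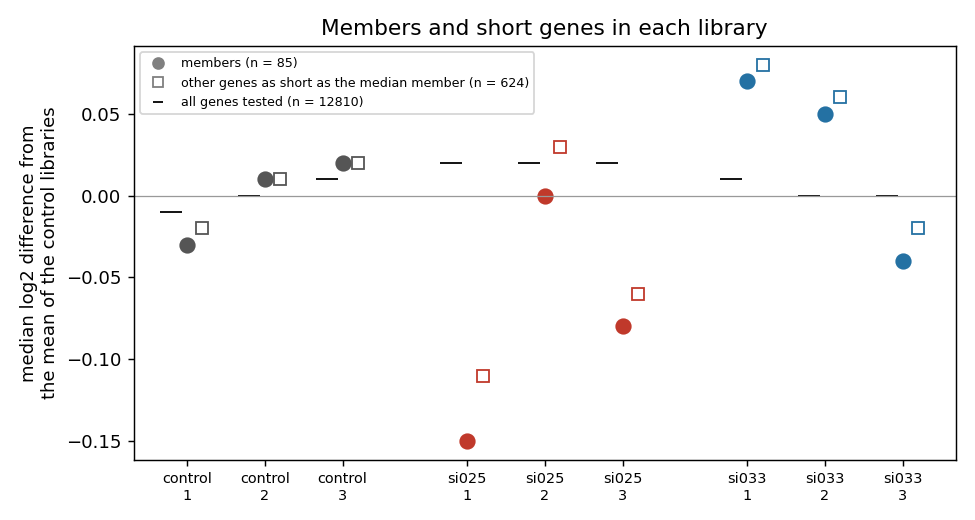
Points give, for each library, the median log2 difference from the mean of the 3 control libraries over the 85 tested members (filled circles), the 624 other tested genes no longer than the median member (open squares) and all tested genes (dashes). Members and other short genes moved together from library to library, from -0.15 and -0.11 in si025 replicate 1 to 0.07 and 0.08 in si033 replicate 1.

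The calls against control are listed side by side, because an overlap between contrasts that share their controls is not independent. *NDUFB10* and *UQCR10* were called higher with both siRNAs, and *SDHA* was called lower with both. *ATP5F1* was called lower with si025 and higher with si033, and the assembly factor *NDUFAF6* the reverse. A further 28 members were called lower with si025 only, 5 higher with si025 only, 14 higher with si033 only and 5 lower with si033 only, and 27 were called with neither. The 5 called higher with si025 only were *NDUFB4*, *NDUFC1*, *NDUFA4* and the assembly factors *NDUFAF1* and *ATP5SL*, with log2 fold changes from 0.15 to 0.27. Of these, *NDUFC1* was not called without control replicate 2 (log2 fold change 0.14, adjusted p = 0.0877) or si025 replicate 2 (0.16, adjusted p = 0.0529). The 5 called lower with si033 only were *NDUFS6*, *NDUFA12*, *NDUFA8*, *UQCRB* and the assembly factor *NDUFAF4*. A call with 1 siRNA only does not show a difference between the siRNAs, and the tested differences are given beside the genes.

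**Figure D3:**
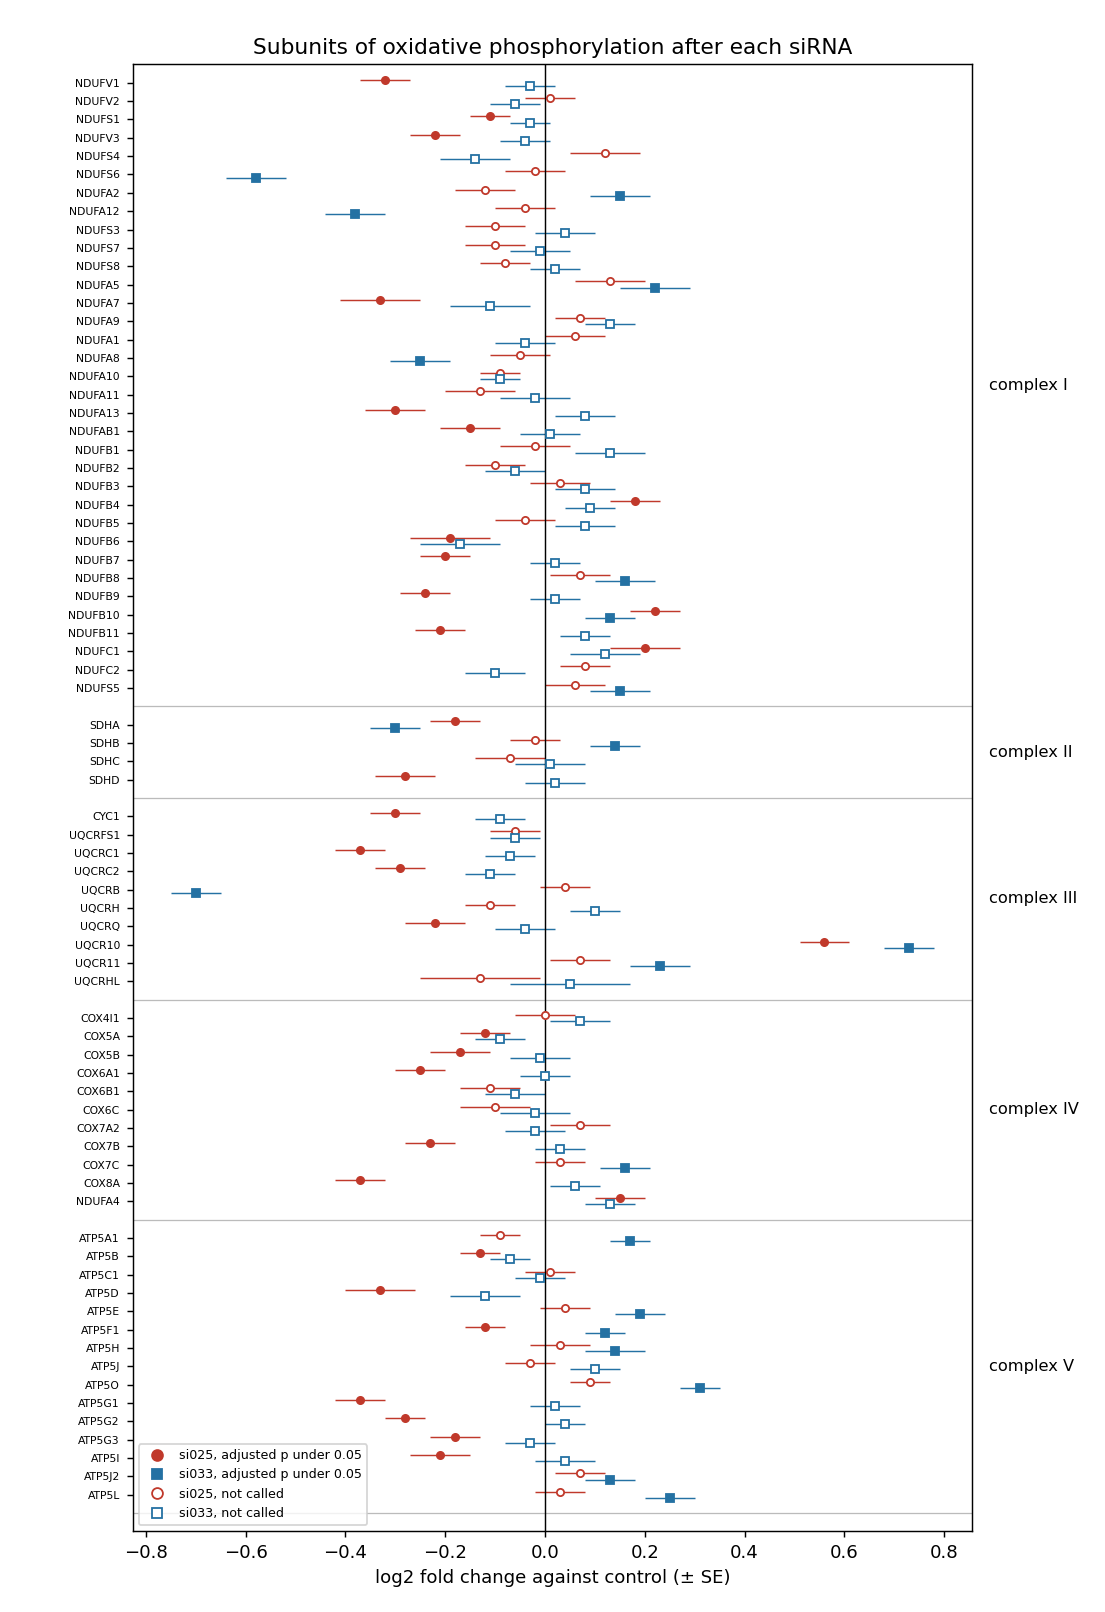
Each row is a tested subunit, apart from items not reported here, grouped by complex. Values are log2 fold changes against control (± SE) for si025 (red circles) and si033 (blue squares), filled where the adjusted p was under 0.05. Most values lay near 0, and *UQCR10* (0.56 and 0.73), *UQCRB* (-0.70 with si033) and *NDUFS6* (-0.58 with si033) stood farthest out.

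Counts by complex, by part and of assembly factors are read against all tested genes, of which 61.7% were called with si025 and 54.8% with si033. In complex I, the NADH dehydrogenase, 14 of 35 tested subunits (40.0%) were called with si025, 3 higher and 11 lower. With si033 9 were called (25.7%), 6 higher and 3 lower. *NDUFS6* and *NDUFA12* are accessory subunits close to the site where the NADH-oxidising arm joins the enzyme. *NDUFS6* (chr5:1801382-1816051, hg38, plus strand) measured 68.7, 64.2 and 67.5 CPM in control, 61.0, 72.6 and 63.0 with si025, and 47.0, 45.3 and 42.7 with si033. All 3 si033 libraries lay below the other 6, which overlapped. The log2 fold change was -0.58 with si033 (SE 0.06, adjusted p = 7.68e-08) and -0.02 with si025 (adjusted p = 0.767), and si025 differed from si033 by 0.56 (adjusted p = 8.61e-08). *NDUFA12* measured 67.0, 71.3 and 71.7 CPM in control, 63.1, 74.0 and 67.5 with si025, and 53.4, 58.6 and 50.9 with si033. It fell by 0.38 on the log2 scale with si033 (SE 0.06, adjusted p = 2.23e-05), and si025 exceeded si033 by 0.34 (adjusted p = 5.39e-05). *NDUFA8*, a subunit of the proton-pumping arm, showed the same order at a smaller size, with -0.25 for si033 (adjusted p = 0.000665) and -0.05 for si025 (adjusted p = 0.405).

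*NDUFV1*, which binds NADH and FMN, had the highest TPM of the complex I subunits in control and measured 454, 440 and 429 CPM in control and 338, 386 and 333 with si025, without overlap. It fell by 0.32 on the log2 scale with si025 (SE 0.05, adjusted p = 1.42e-05), while si033 measured 462, 417 and 418 CPM and the log2 fold change was -0.03 (adjusted p = 0.676). *NDUFA7*, the complex I subunit with the lowest called value for si025, fell by 0.33 with si025 (adjusted p = 0.00107), from 28.3 ± 1.79 to 22.4 ± 2.72 CPM, and lay at 26.4 ± 1.70 CPM with si033.

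With si025 fewer subunits of complex I rose than fell, and with si033 more rose than fell (6 and 3). *NDUFB10*, a subunit of the membrane arm, measured 66.0, 65.2 and 65.4 CPM in control, 73.5, 79.2 and 75.2 with si025 and 75.6, 72.2 and 68.9 with si033. Every siRNA library lay above every control library, by 0.22 (adjusted p = 0.000938) and 0.13 (adjusted p = 0.0338). The si033 call was lost without control replicate 2 (0.14, adjusted p = 0.0663), control replicate 3 (0.14, adjusted p = 0.0737), si033 replicate 1 (0.11, adjusted p = 0.104) or si033 replicate 2 (0.13, adjusted p = 0.0631). With all libraries kept, the same call was lost with DESeq2 (0.13, adjusted p = 0.062) and with no filter on low counts (0.13, adjusted p = 0.055). *NDUFA5* was called higher with si033 (0.22, adjusted p = 0.00964), and this rested on si033 replicate 2 at 162 CPM, without which the value was 0.13 (adjusted p = 0.0993). Without control replicate 2 it was 0.16 (adjusted p = 0.0766). By part of the enzyme, 3 of 8 tested subunits of the dehydrogenase module, 2 of 7 of the quinone-binding module and 9 of 20 of the membrane arm were called with si025. With si033 the counts were 3, 2 and 4. *NDUFA6* and *NDUFA3* had 1 and 10 counts over all 9 libraries together and were not tested, although both are usually expressed in every cell with mitochondria. The reason was not tested.

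Complex II, succinate dehydrogenase, is encoded entirely in the nucleus by 4 genes and belongs to the citric acid cycle as well. *SDHA*, the flavoprotein that oxidises succinate, measured 144, 147 and 151 CPM in control, 130, 135 and 126 with si025 and 125, 120 and 116 with si033. The siRNA libraries lay below all control libraries, and the log2 fold changes were -0.18 (SE 0.05, adjusted p = 0.00192) and -0.30 (SE 0.05, adjusted p = 1.16e-05). Between si025 and si033 the difference was 0.12 (adjusted p = 0.0333) and was not called in 10 of 17 alternatives. Among these were the fits without si025 replicate 1 (0.12, adjusted p = 0.0549) or 2 (0.09, adjusted p = 0.114), without si033 replicate 2 (0.12, adjusted p = 0.0652) or 3 (0.09, adjusted p = 0.181), and without any 1 control library (0.11, adjusted p from 0.0575 to 0.0624). *SDHD*, which anchors the enzyme in the membrane, measured 105, 101 and 111 CPM in control, 79.5, 94.6 and 87.0 with si025 and 102, 117 and 104 with si033. It fell by 0.28 with si025 (SE 0.06, adjusted p = 0.000452) and si025 differed from si033 by -0.30 (adjusted p = 0.000193). *SDHB*, the iron-sulfur subunit, was called higher with si033 only (0.14, adjusted p = 0.0266), a call lost without control replicate 1 (0.11, adjusted p = 0.111), si033 replicate 1 (0.11, adjusted p = 0.102) or si033 replicate 2 (0.14, adjusted p = 0.0503). *SDHC*, the other anchor, was called in no comparison, with log2 fold changes of -0.07 and 0.01. *SDHA* has near-identical pseudogene copies, and its counts are less certain because read pairs that map to several places were not counted.

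Complex III, which passes electrons from ubiquinol to cytochrome c, held the subunits with the largest changes against control. *UQCR10* (chr22:29767369-29770413, plus strand) encodes a small membrane subunit next to the Rieske protein and cytochrome c1. It measured 54.8, 53.4 and 52.5 CPM in control, 77.1, 79.6 and 79.2 with si025 and 93.0, 87.9 and 86.6 with si033. The 3 groups were fully separated. Relative to control, *UQCR10* was 1.47-fold higher with si025 (log2 0.56, SE 0.05, adjusted p = 1.9e-09) and 1.66-fold higher with si033 (log2 0.73, SE 0.05, adjusted p = 2.45e-11). These were the largest increases among the tested subunits. The median of other short genes was at most 0.08 above control in any library. Their median absolute log2 fold change was 0.23 with si025 and 0.19 with si033. Against control, *UQCR10* was called higher with both siRNAs in all 17 alternatives, among them the fit with the length trend removed. The log2 fold changes in these fits were 0.54 to 0.62 with si025 and 0.71 to 0.76 with si033. The part of gene length in the change of *UQCR10* was not tested beyond these fits. Between si025 and si033 the difference was -0.18 (adjusted p = 0.00306), and it was -0.10 (adjusted p = 0.0609) with the length trend removed.

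*UQCRB* (chr8:96226676-96235634, minus strand), a small subunit on the matrix side near the ubiquinone site, showed the largest decrease of a subunit. It measured 325, 330 and 350 CPM in control, 320, 368 and 347 with si025, and 211, 209 and 200 with si033. The si033 libraries lay far below the rest, while control and si025 overlapped. The log2 fold change was -0.70 with si033 (SE 0.05, adjusted p = 3.99e-11) and 0.04 with si025 (adjusted p = 0.46), and si025 differed from si033 by 0.74 (SE 0.05, adjusted p = 7.81e-12). With si033, complex III held both the most increased and the most decreased of the tested subunits.

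In complex III, the core proteins and *CYC1* were called lower with si025. *UQCRC1* and *UQCRC2* encode its large core proteins on the matrix side. *UQCRC1* measured 252, 266 and 252 CPM in control, 194, 206 and 196 with si025 and 256, 243 and 233 with si033. It fell by 0.37 with si025 (SE 0.05, adjusted p = 2.98e-07), without overlap, and lay at -0.07 with si033 (adjusted p = 0.175). With gene length offsets the si033 value of *UQCRC1* was called (-0.09, adjusted p = 0.0472). *UQCRC2* fell by 0.29 with si025 (adjusted p = 9.36e-06), and the value with si033 was -0.11 (adjusted p = 0.0502). The si033 value was called in 10 of 17 alternatives, among them without si025 replicate 1 (-0.11, adjusted p = 0.0412), si025 replicate 2 (-0.11, adjusted p = 0.0286) or si033 replicate 2 (-0.15, adjusted p = 0.0157). *CYC1*, the cytochrome c1 that hands electrons to cytochrome c, fell by 0.30 with si025 (SE 0.05, adjusted p = 1.79e-05), from 209, 208 and 200 CPM to 160, 180 and 161. It measured 199, 199 and 183 CPM with si033 (log2 -0.09, adjusted p = 0.141). With gene length offsets the si033 value of *CYC1* was called (-0.10, adjusted p = 0.0367). *UQCR11* was called higher with si033 (0.23, adjusted p = 0.00153). *UQCRH*, the hinge protein, was called in neither contrast with control but differed between the siRNAs by -0.21 (adjusted p = 0.000925), at 209 ± 6.86 CPM in control, 193 ± 12.2 with si025 and 225 ± 11.3 with si033. Against control, *UQCRH* was called for si025 without control replicate 2 (-0.14, adjusted p = 0.048), si025 replicate 2 (-0.16, adjusted p = 0.00551) or si033 replicate 1 (-0.11, adjusted p = 0.0465), and for si033 without si025 replicate 2 (0.10, adjusted p = 0.0494) or si033 replicate 3 (0.14, adjusted p = 0.0416). Its near-identical copy *UQCRHL* had 8.26 ± 0.927 CPM in control and was called in no comparison, and reads could have been lost or divided between these genes. In all, 5 of 10 subunits of complex III were called with si025, 1 higher and 4 lower, and 3 with si033, 2 higher and 1 lower.

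**Figure D4:**
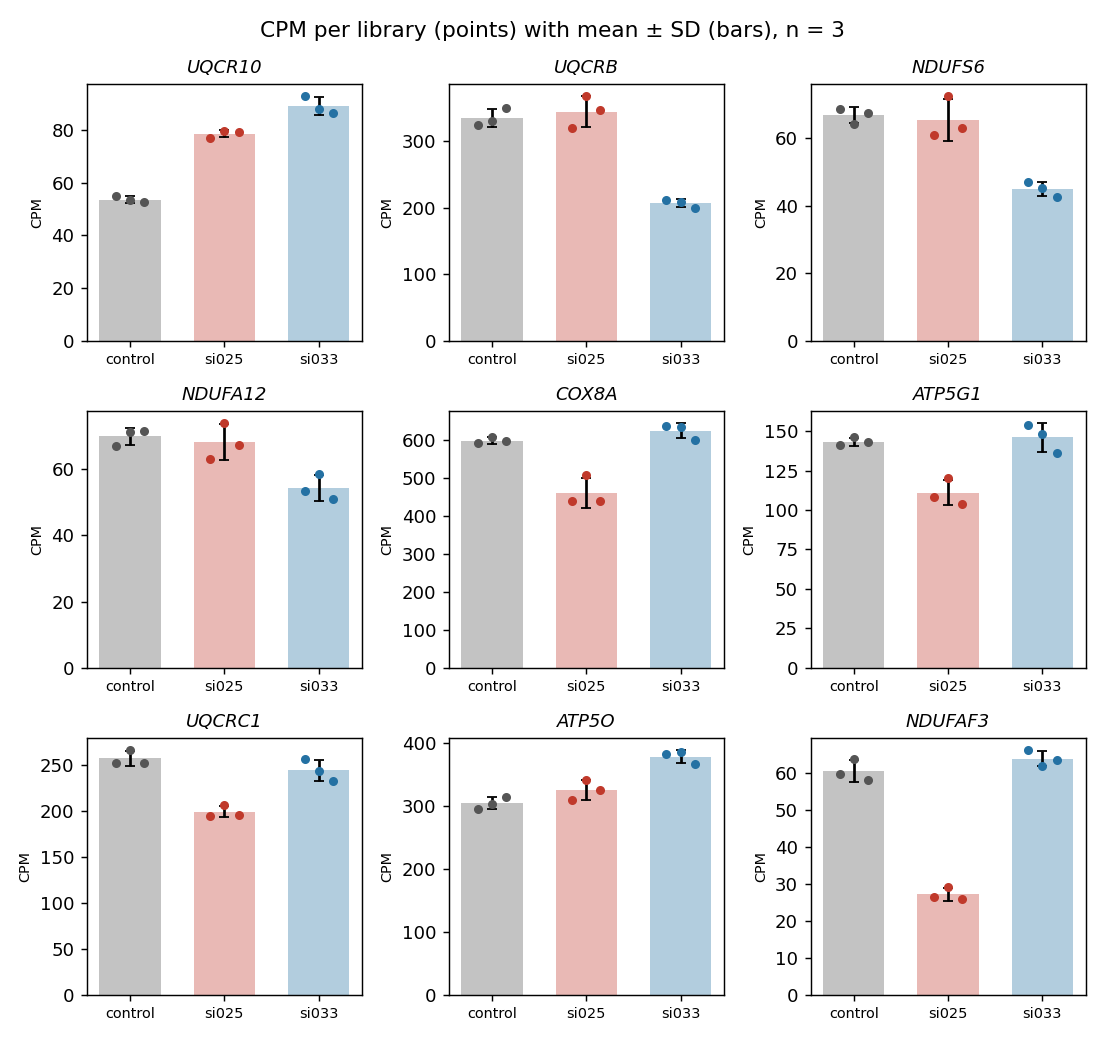
Bars give the mean CPM (± SD, n = 3) and points the CPM of each library for 9 members in control, si025 and si033, on axes that start at 0. Against control, *UQCR10* was called higher with both siRNAs, and *UQCRB*, *NDUFS6* and *NDUFA12* were called lower with si033 alone. *COX8A*, *ATP5G1*, *UQCRC1* and *NDUFAF3* were called lower with si025 alone, and *ATP5O* was called higher with si033 alone.

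In complex IV, cytochrome c oxidase, 6 of 11 tested subunits (54.5%) were called with si025, 1 higher and 5 lower, against 61.7% of all tested genes. With si033 1 was called (9.09%), against 54.8%. *COX8A* is the ubiquitous form of the smallest subunit. It measured 592, 609 and 597 CPM in control, 440, 508 and 439 with si025 and 637, 635 and 601 with si033. The si025 libraries lay below all others, and the log2 fold change was -0.37 (SE 0.05, adjusted p = 6.37e-07) against 0.06 with si033 (adjusted p = 0.318). Between si025 and si033 the difference was -0.43 (adjusted p = 6.92e-08). *COX6A1* fell by 0.25 (adjusted p = 0.000345) and *COX7B* by 0.23 (adjusted p = 0.000197) with si025, both without a call against control for si033. The calls of *COX5A* and *COX5B* with si025, at -0.12 and -0.17, were lost with gene length offsets (-0.05 and -0.06, adjusted p = 0.29 and 0.264) and when single libraries were left out. With upper quartile normalization *COX5A* was not called either (-0.10, adjusted p = 0.0791). *COX5A* was not called without control replicate 2 (-0.11, adjusted p = 0.128), control replicate 3 (-0.12, adjusted p = 0.103), si025 replicate 1 (-0.10, adjusted p = 0.117) or si025 replicate 3 (-0.09, adjusted p = 0.175), and *COX5B* was not called without control replicate 2 (-0.13, adjusted p = 0.0807) or si025 replicate 1 (-0.13, adjusted p = 0.0723).

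Upward, *COX7C* was the complex IV subunit called with si033 (0.16, adjusted p = 0.0122). The call was lost without control replicate 1 (0.13, adjusted p = 0.0643) or si033 replicate 2 (0.13, adjusted p = 0.0607). *NDUFA4*, once counted as a complex I subunit and now placed in complex IV, had 0.15 with si025 (adjusted p = 0.0237) and 0.13 with si033 (adjusted p = 0.0535). The si033 value was called in 9 of 17 alternatives, among them without control replicate 3 (0.18, adjusted p = 0.0197), si025 replicate 1 (0.13, adjusted p = 0.0431), si025 replicate 2 (0.12, adjusted p = 0.0328) or si033 replicate 3 (0.17, adjusted p = 0.0252). The si025 call was lost without control replicate 1 (0.11, adjusted p = 0.126), control replicate 2 (0.13, adjusted p = 0.0851), si025 replicate 2 (0.10, adjusted p = 0.129) or si025 replicate 3 (0.15, adjusted p = 0.0533). *COX4I1*, which binds ATP and tunes the enzyme, measured 92.1 ± 3.30, 92.1 ± 6.40 and 97.5 ± 5.36 CPM, with log2 fold changes of 0.00 and 0.07. *COX6B1* and *COX7A2* were called in no comparison. Without si025 replicate 2 or control replicate 1, *COX6B1* was called lower with si025 (-0.16 and -0.15, adjusted p = 0.0183 and 0.0456), and without si025 replicate 1 *COX7A2* was called higher with si025 than with si033 (0.16, adjusted p = 0.027). With gene length offsets *COX7A2* was called higher with si025 than in control (0.15, adjusted p = 0.00683) and than with si033 (0.19, adjusted p = 0.00118).

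Several subunits of complex IV exist as tissue forms made in heart, muscle, lung or testis, or as a form induced by low oxygen. VCaP cells used the ubiquitous forms. *COX4I2*, *COX6A2*, *COX6B2*, *COX7A1*, *COX7B2* and *COX8C* had 0 counts in all 9 libraries, which allows up to 0.105 to 0.258 CPM per library (3 counts, counting error only). *NDUFA4L2*, the hypoxia-induced relative of *NDUFA4*, had 86 counts over the 9 libraries and levels of 0.386 to 0.580 CPM in control, 0.198 to 0.884 with si025 and 0.387 to 0.725 with si033, below the filter. No switch between forms was detectable at this depth.

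In complex V, the calls in the contrasts with control lay on opposite sides. With si025, 7 of 15 tested subunits were called (46.7%), all lower, against 61.7% of all tested genes. With si033 7 were called (46.7%), all higher, against 54.8% of all tested genes. Only *ATP5F1* was called with both siRNAs, and the other calls fell on different subunits. Between the siRNAs 11 were called (73.3%), all lower with si025, against 60.9% of all tested genes. The median log2 fold change was -0.09 with si025 and 0.10 with si033. The split into opposite sides was not complete in the alternatives. With gene length offsets *ATP5O* was called higher with si025 (0.17, adjusted p = 9.71e-05), and *ATP5B* and *ATP5D* were called lower with si033 (-0.09 and -0.14, adjusted p = 0.0134 and 0.0476). Without si033 replicate 1 *ATP5D* was also called lower with si033 (-0.21, adjusted p = 0.0129). *ATP5G1*, *ATP5G2* and *ATP5G3* (now *ATP5MC1* to *ATP5MC3*) encode the same mature c subunit, which forms the rotating ring, with different import sequences. *ATP5G1* measured 141, 146 and 143 CPM in control, 108, 120 and 104 with si025 and 154, 148 and 136 with si033. It fell by 0.37 with si025 (SE 0.05, adjusted p = 3.51e-06). *ATP5G2* measured 244, 262 and 254 CPM in control and 204, 218 and 205 with si025, and fell by 0.28 (SE 0.04, adjusted p = 7.94e-06). *ATP5G3* measured 217, 231 and 221 CPM in control and 193, 204 and 194 with si025, and fell by 0.18 (SE 0.05, adjusted p = 0.0015). In each case the si025 libraries lay below the control libraries without overlap. With si033 the values were 0.02, 0.04 and -0.03, none called, and the differences between the siRNAs were -0.39, -0.32 and -0.15, all called.

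The peripheral stalk of the ATP synthase holds its catalytic head still while the ring turns. *ATP5O*, which encodes the stalk protein OSCP, measured 295, 303 and 314 CPM in control, 309, 341 and 325 with si025 and 382, 385 and 366 with si033. It rose with si033 (log2 0.31, SE 0.04, adjusted p = 3.41e-06), which was separated from both other groups, and the si025 value was 0.09 (adjusted p = 0.0704). The si025 value of *ATP5O* was called with gene length offsets (0.17, adjusted p = 9.71e-05), with upper quartile normalization (0.12, adjusted p = 0.0252) and without si025 replicate 1 (0.13, adjusted p = 0.0217). *ATP5F1*, the b subunit, had -0.12 with si025 (adjusted p = 0.0228) and 0.12 with si033 (adjusted p = 0.0304), and si025 differed from si033 by -0.24 (adjusted p = 7.73e-05). Both calls against control were lost when single libraries were left out. For si025 this was so without si025 replicate 1 (-0.10, adjusted p = 0.089) or replicate 3 (-0.11, adjusted p = 0.0763), or control replicate 2 (-0.12, adjusted p = 0.0532) or 3 (-0.11, adjusted p = 0.0805). For si033 it was so without si033 replicate 2 (0.09, adjusted p = 0.121) or control replicate 1 (0.11, adjusted p = 0.0871) or 2 (0.13, adjusted p = 0.0516).

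In the catalytic head, *ATP5B* measured 2100, 2220 and 2190 CPM in control and 1940, 2050 and 1960 with si025 and fell by 0.13 (SE 0.04, adjusted p = 0.00565). *ATP5D*, the delta subunit of the central stalk, fell by 0.33 with si025 (SE 0.07, adjusted p = 0.00047), from 119, 114 and 107 CPM to 80.7, 101 and 86.4. *ATP5A1*, the alpha subunit, rose by 0.17 with si033 (adjusted p = 0.00119) and had -0.09 with si025 (adjusted p = 0.0539), which was called in 9 of 17 alternatives, among them without si025 replicate 2 (-0.12, adjusted p = 0.0117), si033 replicate 1 (-0.10, adjusted p = 0.0444) or si033 replicate 2 (-0.09, adjusted p = 0.0454). *ATP5L*, a membrane subunit that helps the enzyme form dimers, rose by 0.25 with si033 (adjusted p = 0.000333) and had 0.03 with si025 (adjusted p = 0.65). By part, 2 of 5 tested subunits of the head and central stalk, 3 of 3 of the ring, 1 of 4 of the peripheral stalk and 1 of 3 of the membrane accessory subunits were called with si025, and 2, 0, 3 and 2 with si033. The counts of *ATP5J2* and of the complex I gene *NDUFC2* are less certain, since 35.4% and 31.7% of their exonic bases are shared with the read-through genes *ATP5J2-PTCD1* and *NDUFC2-KCTD14*. The read-through genes had 1 count each over all libraries and were not tested.

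The 9 assembly factors help build the complexes but are absent from the finished enzymes. Of these, 5 were called with si025 (55.6%) and 2 with si033 (22.2%), against 61.7% and 54.8% of all tested genes. *NDUFAF3* (chr3:49020475-49023495, plus strand), which acts early in the assembly of the complex I quinone module, was the member with the largest change of all. It measured 59.7, 63.8 and 58.2 CPM in control, 26.4, 29.1 and 26.0 with si025 and 66.2, 62.0 and 63.5 with si033. The si025 libraries were at 0.45 times the control level (log2 -1.15, SE 0.06, adjusted p = 2.1e-13), and the si033 value was 0.08 (adjusted p = 0.24). Its partner *NDUFAF4* had -0.08 with si025 (adjusted p = 0.273) and fell by 0.30 with si033 (adjusted p = 0.00047). *NDUFAF6* had 0.13 with si025 (adjusted p = 0.0479) and -0.21 with si033 (adjusted p = 0.00435). The si025 call of *NDUFAF6* was lost in 13 of 17 alternatives, among them without any 1 si033 library, without si025 replicate 1 or 3 and without control replicate 1 or 2, at values from 0.08 to 0.13, and its si033 call without control replicate 3 (-0.15, adjusted p = 0.0655). *COX7A2L*, which joins complexes III and IV, rose by 0.23 with si033 (SE 0.05, adjusted p = 0.000478), from 118, 128 and 130 CPM to 147, 151 and 143, and had -0.05 with si025 (adjusted p = 0.423).

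Related genes outside or partly overlapping the member set were counted in lists by function. The counts are read against all tested genes, of which 61.7% were called with si025 and 54.8% with si033, and several lists lay near these shares. Of 20 complex I assembly genes, 12 were called with si025 (4 higher, 8 lower) and 4 with si033 (1 higher, 3 lower). For complex II assembly, 1 of 4 genes was called lower with si025 and 3 higher with si033, and for complex III assembly 4 of 6 were called lower with si025 and 5 with si033 (3 higher, 2 lower). Of 28 complex IV assembly genes, 16 were called with si025 (6 higher, 10 lower) and 12 with si033 (6 in each direction). Of the 4 complex V assembly genes in the files, 2 were called lower with si025, and with si033 1 was called higher and 1 lower. *ATPAF1*, which chaperones the beta subunit into the catalytic head, had 127 ± 3.66 CPM in control, 41.5 ± 1.45 with si025 and 150 ± 1.54 with si033 (log2 -1.62, adjusted p = 3.31e-17, and 0.23, adjusted p = 0.000123). *LYRM7*, which matures the Rieske protein of complex III, had 34.4 ± 0.365, 22.0 ± 0.408 and 41.2 ± 4.29 CPM (log2 -0.64 and 0.27, adjusted p = 3.74e-08 and 0.00142). *CMC2*, a complex IV assembly gene, fell with both, by 0.76 and 0.25 (adjusted p = 4.51e-10 and 0.0016), and *SURF1*, which acts early in complex IV assembly, rose by 0.39 and 0.37 (adjusted p = 5.08e-06 and 1.31e-05). Of the 2 supercomplex genes, *COX7A2L* was the 1 called with si033.

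Around the chain, counts are again read against the 61.7% of all tested genes called with si025 and the 54.8% called with si033. Of 18 genes of electron carriers and coenzyme Q synthesis, 9 were called with si025 (2 higher, 7 lower) and 6 with si033 (2 higher, 4 lower). *CYCS*, cytochrome c itself, had 339 ± 12.5 CPM in control, 265 ± 14.9 with si025 and 270 ± 28.7 with si033, and fell by 0.35 and 0.33 (adjusted p = 1.39e-05 and 4.57e-05). *SQRDL* of the same list went the other way with si025, from 5.33 ± 0.662 to 18.3 ± 0.956 CPM (log2 1.77, adjusted p = 5.34e-12). With si033 *SQRDL* had -0.10 (adjusted p = 0.572). Of 13 genes that copy and transcribe mitochondrial DNA, 9 were called with si025 and 2 with si033, all lower, and the median log2 fold changes were -0.20 and -0.02. *TFAM*, which packages and activates mitochondrial DNA, fell by 0.35 and 0.38 (adjusted p = 3.08e-06 and 1.87e-06), and *C10orf2*, the replicative helicase Twinkle, fell by 0.42 with si025 (adjusted p = 5.17e-07) and had -0.07 with si033 (adjusted p = 0.28). Of 21 citric acid cycle and pyruvate dehydrogenase genes, 17 were called with si025 (81.0%, 5 higher and 12 lower) and 11 with si033 (52.4%, 2 higher and 9 lower). Citrate synthase, *CS*, fell by 0.46 with si025 (adjusted p = 1.34e-09) and by 0.13 with si033 (adjusted p = 0.00846), the last lost without control replicate 2 (-0.11, adjusted p = 0.0598). *DLAT*, a pyruvate dehydrogenase subunit, fell by 0.46 and 0.32 (adjusted p = 5.42e-09 and 1.99e-06). Upward in this list, *IDH3A* rose by 0.39 with si025 (adjusted p = 2.47e-07), though it had -0.12 with si033 (adjusted p = 0.0369). *DLST* rose by 0.19 and 0.39 (adjusted p = 0.000827 and 2.23e-07). Of 11 nuclear regulators of respiration, 8 were called with si025 (3 higher, 5 lower) and 9 with si033 (4 higher, 5 lower). *NRF1* and *GABPA*, which activate many respiratory genes, fell by 0.32 and 0.36 with si025 (adjusted p = 0.000337 and 0.000125) and had -0.20 and -0.22 with si033 (adjusted p = 0.0174 and 0.0113). The si033 call of *NRF1* was lost without control replicate 1 (-0.15, adjusted p = 0.108), control replicate 2 (-0.19, adjusted p = 0.0533), si033 replicate 2 (-0.17, adjusted p = 0.0607) or si033 replicate 3 (-0.19, adjusted p = 0.0649), and that of *GABPA* without control replicate 1 (-0.20, adjusted p = 0.0535), control replicate 3 (-0.18, adjusted p = 0.0856) or si033 replicate 1 (-0.13, adjusted p = 0.0975). *YY1* fell by 0.18 with si025 (adjusted p = 0.00168) and rose by 0.25 with si033 (adjusted p = 7.45e-05). *HIF1A*, the oxygen-regulated factor, rose by 0.84 and 0.63 (adjusted p = 1.18e-12 and 2.75e-10), and *PPARGC1A*, a coactivator of mitochondrial biogenesis, rose from 1.31 ± 0.227 CPM to 3.61 ± 0.944 with si025 (log2 1.46, adjusted p = 1.04e-05) and had 2.19 ± 0.530 with si033 (log2 0.78, adjusted p = 0.0126). That si033 call was lost without control replicate 3 (0.71, adjusted p = 0.0715) or si033 replicate 2 (0.65, adjusted p = 0.0523).

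Because NRF1, GABPA and YY1 are known to act on promoters of respiratory genes, the promoters of the subunits were searched for short words on both strands, in windows of 300 bases that span the start site (RefSeq, GRCh38.p14). Of the 85 subunits, 66 matched an entry. The words were GCATGCGC (NRF1), CCGGAAG (the core of the ETS factor GABPA), AAGATGG (YY1) and CACGTG (the E-box), and no word contains another. The NRF1 word stood in 14 subunit genes (21.2%) against 3.68% of all 27305 genes with a promoter entry. The ETS word stood in 20 (30.3% against 12.2%), the YY1 word in 18 (27.3% against 7.11%) and the E-box in 7 (10.6% against 8.77%). The 27305 genes were not limited to those that passed the expression filter. Whether the subunits differ from other expressed genes was not tested. Tested subunits with the NRF1 word had a median log2 fold change of -0.05 with si025 and 0.02 with si033, and those without it -0.10 and 0.02. With and without the ETS word the medians were -0.11 and -0.07 with si025 and 0.05 and 0.00 with si033. With and without the YY1 word they were -0.03 and -0.11 with si025 and 0.11 and 0.02 with si033, and with and without the E-box -0.13 and -0.08 with si025 and 0.02 and 0.02 with si033. A match describes letters only and shows no binding.

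**Figure D5:**
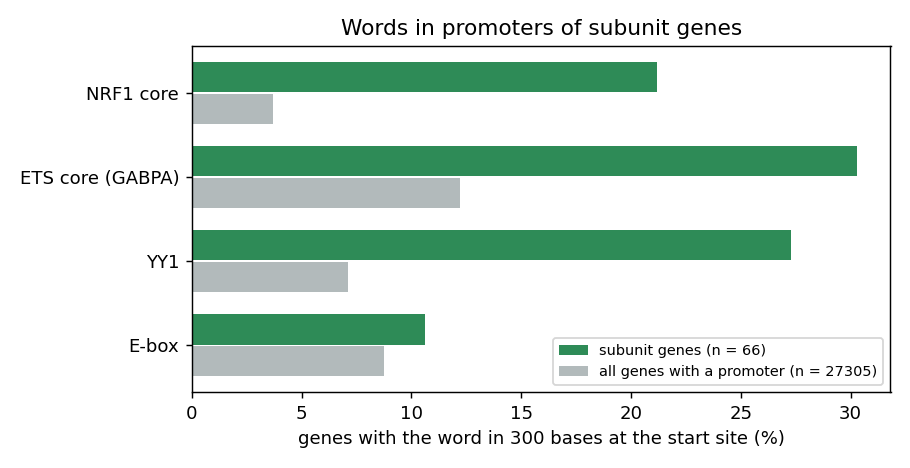
Bars give the percentage of genes with each word in the 300 bases around the start site, for the 66 subunit genes with a promoter entry and for all 27305 genes with an entry, not limited to expressed genes. The NRF1, ETS and YY1 words stood in 21.2%, 30.3% and 27.3% of subunit genes and in 3.68%, 12.2% and 7.11% of all genes, and the E-box in 10.6% and 8.77%.

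Promoters of 4 subunits described above are shown as examples, with the matched words in capitals. They were picked by hand, so they cannot link a word to the response to an siRNA. *SDHD*, lower with si025, holds overlapping NRF1 words and an ETS word. *NDUFS6*, lower with si033, holds an NRF1 word. *COX8A*, lower with si025, holds an ETS word, and *ATP5G1*, lower with si025, holds an E-box. Each start site lay within 49 bases of the 5′ end of the gene in the count files.
SDHD, chr11:112086623-112086922, plus strand: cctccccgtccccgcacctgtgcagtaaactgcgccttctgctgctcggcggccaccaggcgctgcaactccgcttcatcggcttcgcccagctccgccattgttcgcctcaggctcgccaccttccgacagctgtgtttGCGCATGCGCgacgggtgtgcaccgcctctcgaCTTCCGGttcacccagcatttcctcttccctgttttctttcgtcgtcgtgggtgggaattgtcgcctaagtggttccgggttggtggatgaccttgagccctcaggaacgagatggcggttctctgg
NDUFS6, chr5:1801157-1801456, plus strand: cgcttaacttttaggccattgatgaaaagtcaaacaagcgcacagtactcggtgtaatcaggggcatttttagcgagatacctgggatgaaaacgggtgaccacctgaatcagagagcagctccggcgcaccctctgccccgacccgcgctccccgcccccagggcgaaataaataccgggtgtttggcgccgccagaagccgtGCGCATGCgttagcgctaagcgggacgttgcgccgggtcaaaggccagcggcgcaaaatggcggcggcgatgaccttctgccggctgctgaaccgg
COX8A, chr11:63974370-63974669, plus strand: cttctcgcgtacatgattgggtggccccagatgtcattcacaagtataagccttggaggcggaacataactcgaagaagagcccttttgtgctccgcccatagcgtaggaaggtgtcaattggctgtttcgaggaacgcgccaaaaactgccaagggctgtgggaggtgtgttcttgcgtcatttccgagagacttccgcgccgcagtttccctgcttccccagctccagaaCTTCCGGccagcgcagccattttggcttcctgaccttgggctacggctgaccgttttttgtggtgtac
ATP5G1, chr17:48892537-48892836, plus strand: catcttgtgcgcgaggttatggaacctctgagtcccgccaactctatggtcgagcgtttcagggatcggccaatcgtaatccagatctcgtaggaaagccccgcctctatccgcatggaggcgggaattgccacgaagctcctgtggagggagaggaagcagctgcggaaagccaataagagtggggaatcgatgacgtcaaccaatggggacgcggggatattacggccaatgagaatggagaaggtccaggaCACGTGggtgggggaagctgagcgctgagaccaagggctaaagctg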

How the data were processed

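Libraries were made from 1.3 µg of total RNA with a stranded total RNA kit and sequenced in pairs. Per the file headers and the submitters' processing notes, the deposited counts of read pairs per gene were made by the authors with HISAT2 2.1.0 and featureCounts 1.5.2, reverse stranded, on hg38 with RefSeq genes (the methods name GENCODE). Reads mapping to several places or to overlapping genes were not counted, which lowers genes with near-identical copies. Groups came from the sample labels, with 3 libraries each.

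All 9 libraries were fitted together with edgeR 4.0.16 (R 4.3.3; TMM, filterByExpr, quasi-likelihood test), with Benjamini-Hochberg adjustment over 12810 genes. CPM used TMM library sizes, TPM the deposited union exon lengths. SE was the absolute log2 fold change divided by the square root of F. The script was tested on simulated data. Intervals and floors cover counting error only. Alternatives used limma 3.58.1 and DESeq2 1.42.0, other scalings and filters, gene length offsets, a replicate block and leaving out each library. Tables and plots used Python 3.11.15, pandas 2.3.3 and Matplotlib 3.10.9. The members and lists were chosen with earlier results of these data known. Of the genes named, 41 members followed a rule (highest and lowest called change and TPM of each complex, largest differences between the siRNAs, complex II and *CYC1*, paralog families), and 27 genes were added after their values were seen. *SQRDL*, *IDH3A* and *DLST* are given beside other genes of their lists. They are not in these counts or in the counts of single genes under the alternatives. Some items are not reported here.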

Additional observations from a re-analysis of the deposited data

Results flagged for a closer look

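The effects of the siRNAs were compared with a test of the difference itself (edgeR quasi-likelihood test, adjusted p under 0.05). Among the 34 tested members named by the rule and the 27 genes added later, 43 differed. Of all 12810 tested genes, 60.9% differed. Some genes were named for a large difference and others after their values were seen, so the count cannot be read as a result about the members. Values are log2 differences, si025 minus si033, and positive values mean a higher level with si025. In complex I the genes that differed were *NDUFA7* (-0.22), *NDUFV1* (-0.29), *NDUFS6* (0.56), *NDUFA12* (0.34) and *NDUFA8* (0.20). In complex II they were *SDHA* (0.12), *SDHB* (-0.16) and *SDHD* (-0.30), and in complex III *UQCR10* (-0.18), *UQCRC1* (-0.29), *UQCRC2* (-0.18), *UQCRB* (0.74), *CYC1* (-0.21), *UQCRH* (-0.21) and *UQCR11* (-0.16). In complex IV they were *COX8A* (-0.43), *COX7C* (-0.13), *COX5B* (-0.16), *COX6A1* (-0.25) and *COX7B* (-0.26), all lower with si025, and in complex V *ATP5F1* (-0.24), *ATP5G1* (-0.39), *ATP5G2* (-0.32), *ATP5G3* (-0.15), *ATP5O* (-0.21), *ATP5A1* (-0.26), *ATP5D* (-0.21) and *ATP5L* (-0.22), also all lower with si025. Among the other members they were *COX7A2L* (-0.28), *NDUFAF1* (0.23), *NDUFAF3* (-1.23), *NDUFAF4* (0.22), *NDUFAF6* (0.34) and *ATP5SL* (0.17). Among the listed genes of related function they were *ATPAF1* (-1.85), *LYRM7* (-0.91), *CMC2* (-0.51), *C10orf2* (-0.35), *YY1* (-0.43), *PPARGC1A* (0.68), *HIF1A* (0.21), *CS* (-0.32) and *DLAT* (-0.14).

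Some of these differences were lost when 1 library was left out, beside that of *SDHA* described above. This was so for *ATP5D* without si025 replicate 1 (-0.15, adjusted p = 0.108), si025 replicate 3 (-0.18, adjusted p = 0.074) or si033 replicate 1 (-0.12, adjusted p = 0.128). The *COX5B* difference was lost without si025 replicate 1 (-0.12, adjusted p = 0.0917), si025 replicate 3 (-0.15, adjusted p = 0.0587) or si033 replicate 2 (-0.14, adjusted p = 0.0653). The *COX7C* difference was lost without si025 replicate 1 (-0.09, adjusted p = 0.171), si025 replicate 3 (-0.13, adjusted p = 0.0674) or si033 replicate 2 (-0.10, adjusted p = 0.131). The *NDUFA7* difference was lost without si025 replicate 1 (-0.20, adjusted p = 0.0656), si025 replicate 3 (-0.14, adjusted p = 0.182) or si033 replicate 2 (-0.18, adjusted p = 0.0874). The *NDUFAF1* difference was lost without si033 replicate 3 (0.22, adjusted p = 0.0662). The *NDUFAF4* difference was lost without si033 replicate 3 (0.15, adjusted p = 0.0916). The *SDHB* difference was lost without si025 replicate 1 (-0.13, adjusted p = 0.0545). The *UQCR11* difference was lost without si025 replicate 1 (-0.12, adjusted p = 0.0776), si025 replicate 3 (-0.14, adjusted p = 0.0648) or si033 replicate 1 (-0.12, adjusted p = 0.063). With gene length offsets the differences of *COX5B* (-0.04, adjusted p = 0.512), *NDUFA7* (-0.14, adjusted p = 0.0965), *SDHA* (0.08, adjusted p = 0.128), *SDHB* (-0.09, adjusted p = 0.0687), *UQCR10* (-0.10, adjusted p = 0.0609), *ATP5D* (-0.13, adjusted p = 0.0652) and *COX7C* (0.02, adjusted p = 0.758) were not called. DESeq2 did not call those of *SDHA* (0.11, adjusted p = 0.058), *ATP5D* (-0.23, adjusted p = 0.0776) and *NDUFAF1* (0.22, adjusted p = 0.0808). The reasons were not tested.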

How the results depend on the processing

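Calls of members were compared under 18 alternatives. With gene length offsets, members called higher with si025 went from 8 to 17, those called lower with si033 from 7 to 14, and those called lower with si025 and higher with si033 from 31 to 27 and from 18 to 19; between the siRNAs 16 were then higher and 30 lower, against 11 and 39. Requiring a change of at least 1.2-fold left 2 higher and 13 lower with si025, 2 higher and 5 lower with si033, and 5 higher and 14 lower between the siRNAs. Leaving out 1 library gave 5 to 10 higher and 26 to 36 lower with si025, 8 to 21 higher and 6 to 9 lower with si033, and 8 to 11 higher and 29 to 46 lower between the siRNAs. Over all tested genes, the same fits called 7151 to 8096 with si025, 6151 to 7249 with si033 and 7023 to 7804 between the siRNAs. The lowest counts of members called higher came without control replicate 2 (5, si025) and without si033 replicate 2 (8, si033). Without control replicate 1, 11 members were called higher with si033. The *COX7C* difference between the siRNAs turned from -0.13 to 0.02 with gene length offsets. The cause of these changes was not tested.

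With the replicate block the counts of members were 8 higher and 33 lower with si025, 20 and 8 with si033, and 11 and 41 between the siRNAs. Over all tested genes that fit called 8000, 7094 and 7843. Deviations of libraries with the same number correlated by -0.021 to 0.073. Such low values cannot exclude that libraries with the same number shared a culture or a batch. The sources used here do not say. Of 115 called values of single genes, 89 kept their call under all alternatives run, and 26 lost it under at least 1. Of 68 values not called, 24 were called under at least 1. With 3 libraries a group and the smallest library at 11649811 counts, small changes are the least certain.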
